A study of Arabidopsis thaliana with 24 samples.

Results

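The 9 loci described here belong to 3 groups of terpene genes of Arabidopsis thaliana and were picked by locus code out of the 33602 loci counted in this study. The first group is the thalianol cluster, with THAS1 (AT5G48010), CYP708A2 (AT5G48000), CYP705A5 (AT5G47990) and AT5G47980. The second is the marneral cluster, with MRN1 (AT5G42600), CYP71A16 (AT5G42590) and CYP705A12 (AT5G42580). The third is the pair of cineole synthase loci AT3G25820 and AT3G25830, which share the symbol TPS-CIN. All 9 passed the filter on low counts in roots and in shoots. The loci were chosen with results of these same libraries known, and the choice does not say which comparison it rested on, so the counts of called genes below describe these libraries and nothing is read from them.

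Triterpenes are made from oxidosqualene, the last shared precursor with the sterols, by enzymes called oxidosqualene cyclases. In the thalianol and marneral clusters the cyclase gene sits beside genes for cytochrome P450 enzymes that modify its product, joined in the thalianol cluster by an acyltransferase gene, and such clusters are known in Arabidopsis for expression in the root. Cineole is a volatile monoterpene made from a different precursor in the plastid, and its synthase is also known as a root gene.

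RNA from the root and from the shoot of seedlings aged 7 days was sequenced for 3 genotypes. The label pxy stands for the pxy-5 mutant of PXY, the receptor kinase that perceives the CLE41 peptide in the vascular cambium. The label 41-OX stands for seedlings with constitutive CLE41, for which the promoter was not given in the sources used here, and WT is Col-0. Each genotype and organ had 4 libraries, and 2 of the 24 were left out here, namely pxy root replicate 2 and WT shoot replicate 2. That leaves 22 libraries, with 4 in every group except pxy roots and WT shoots, which have 3. The submitters call the replicates biological, without saying whether they came from separate plants, plates or pools, so p-values measure only the spread between these libraries.

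The 22 libraries held 7033091 to 12226066 counts each. Levels are CPM, read counts brought to a common library total, scaled by the trimmed mean of M-values (TMM). Levels of organ-specific genes and summed cell-type markers are instead CPM by plain library total, without TMM scaling. CLE41 was at 26.3 to 33.3 CPM in 41-OX roots against 8.26 to 10.2 CPM in WT roots, and at 27.8 to 29.7 CPM in 41-OX shoots against 15.5 to 21.97 CPM in WT shoots. PXY was at 12.7 to 18.5 CPM in roots labelled pxy against 14.6 to 23.6 CPM in WT roots, but at 35.8 to 42.6 CPM in shoots labelled pxy against 9.15 to 11.6 CPM in WT shoots. Counts per locus do not show which stretch of PXY was read, so they cannot check the allele. In root libraries, 41-OX replicate 4 and pxy replicate 3 stood apart from the others of their group. Of the shoot-specific transcripts, 41-OX root replicate 4 held 11.4% of the mean of WT and pxy shoots, against 0.474% to 2.01% in the other 41-OX roots and 0.479% to 2.06% in WT roots. The 2 left-out libraries had 7765685 counts (pxy root replicate 2) and 167131 counts (WT shoot replicate 2). That pxy library held 93.7% of the shoot-specific and 5.24% of the root-specific level, which goes against its root label.

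The loci lie in 3 places of the TAIR10.1 assembly. The thalianol group spans 32819 bp at chr5:19428888-19461706 and the marneral group 34744 bp at chr5:17023502-17058245. The cineole pair spans 11892 bp at chr3:9439146-9451037. All 9 are annotated as protein-coding genes and none overlaps another gene. Upstream stretches are shown for the 2 cyclase genes, on which each cluster is built, and for both cineole loci, because of what their sequence does to the counts. Each is the 150 bases before the gene's start, written 5′ to 3′, with capitals for TATAAA or TTGACC read on either strand (TTTATA and GGTCAA are their reverse complements).
THAS1, chr5:19456687-19456836: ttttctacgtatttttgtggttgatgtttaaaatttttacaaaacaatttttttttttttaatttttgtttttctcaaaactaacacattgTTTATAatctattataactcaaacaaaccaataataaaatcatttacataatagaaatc
MRN1, chr5:17053303-17053452: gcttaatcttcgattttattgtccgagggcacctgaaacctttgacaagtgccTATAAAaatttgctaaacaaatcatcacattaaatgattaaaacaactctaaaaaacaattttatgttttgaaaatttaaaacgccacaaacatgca
TPS-CIN AT3G25820, chr3:9438996-9439145: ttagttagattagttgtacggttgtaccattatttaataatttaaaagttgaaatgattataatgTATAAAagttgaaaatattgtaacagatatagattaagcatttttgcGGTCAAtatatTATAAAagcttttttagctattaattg
TPS-CIN AT3G25830, chr3:9447259-9447408: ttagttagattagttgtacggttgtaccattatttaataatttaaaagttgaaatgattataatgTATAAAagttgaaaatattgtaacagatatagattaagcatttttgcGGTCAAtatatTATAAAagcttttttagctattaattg
The upstream stretches of both cineole loci are the same letter for letter. In the 250 bases upstream, TATAAA, the core of many plant promoters, occurs on either strand in 7 of the 9 loci and in 47.3% of the 27443 promoters of protein-coding genes. TTGACC, a W-box core read by WRKY factors, occurs in 3 of the 9 (CYP71A16 and both cineole loci) and in 12.2% of all promoters. The W-box form TTGACT (19.1% of all) and the G-box CACGTG (6.49% of all) occur in none of the 9. These matches describe letters in this window only.

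The cineole pair could not be resolved by these counts. AT3G25820 and AT3G25830 are both 3629 bp long, differ at 0 bases, and stay identical for 2097 bp before and 1819 bp after the gene, with 4634 bp between the genes. A read from one locus therefore has an equal match in the other. The file lists 0 reads as aligned to more than 1 place in every library, yet both loci have counts. AT3G25820 took 50.9% of the pair's 11724 counts in WT root replicate 1 (exact binomial 95% interval 49.96% to 51.8%, counting error only), and between 49.2% and 52.2% in all 22 libraries. The near-even split was present in every group, so the 2 rows are 1 signal, whose level is given as their sum. They stand as 2 rows only where the 9 loci are counted or a value was computed for each row.

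Levels per kilobase of exon differed widely among the 7 cluster loci. The cineole pair is left out of this order, since its reads cannot be assigned to a locus and the annotated exon length differs between the loci (3125 bp for AT3G25820 and 2660 bp for AT3G25830). In pxy roots, CYP705A5 (a desaturase of the thalianol pathway) and CYP708A2 (the thalianol hydroxylase) were level at 237 ± 83.9 and 236 ± 15.3 CPM per kb (SD, n = 3). In 41-OX roots, CYP705A5 was at 172 ± 24.7 CPM per kb, CYP708A2 at 127 ± 9.83 and THAS1 (thalianol synthase) at 94.7 ± 12.6 (SD, n = 4). In WT roots the order was CYP705A5 at 241 ± 20.7 CPM per kb, CYP708A2 at 201 ± 17.8 and THAS1 at 175 ± 17.0 (SD, n = 4). MRN1 (marneral synthase) came next in WT roots at 111 ± 9.99 CPM per kb and CYP71A16 (marneral oxidase) at 88.2 ± 8.58. CYP705A12, a P450 gene of the marneral cluster, had 60.3 ± 6.10 CPM per kb in WT roots and AT5G47980, an acyltransferase gene, 57.3 ± 12.0, which did not differ beyond their spread.

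**Figure D1:**
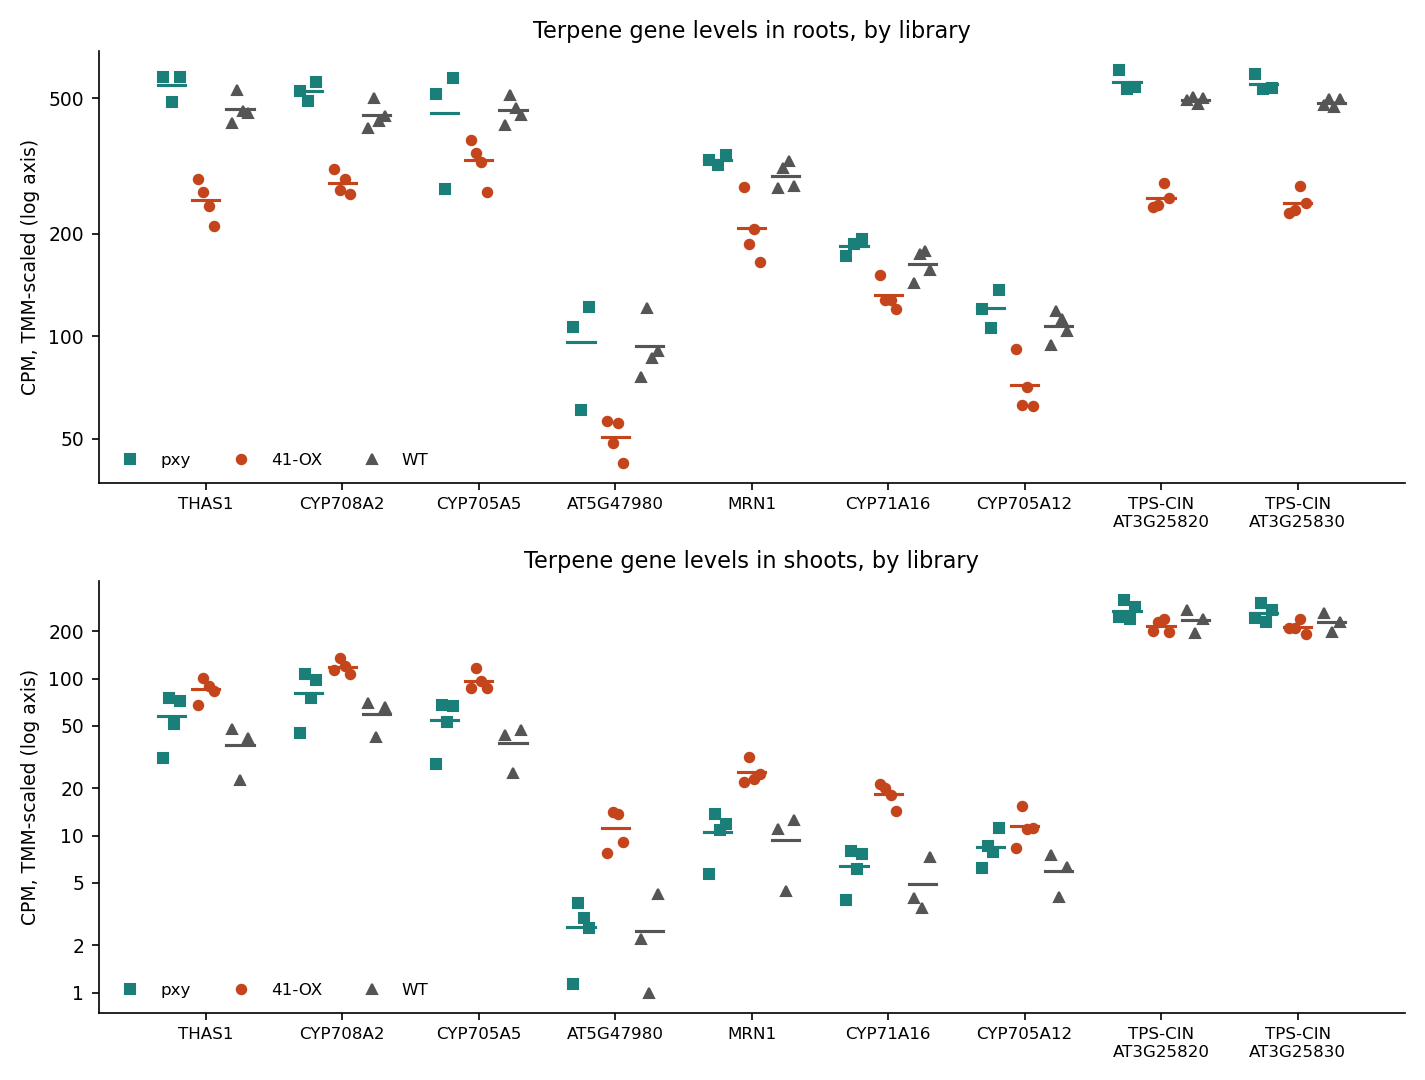
Levels of the 9 loci in roots (top) and shoots (bottom), as TMM-scaled CPM on a log axis, with 1 point per library and a bar at the group mean, in pxy, 41-OX and WT. In roots the 41-OX points lie lowest for most loci, with THAS1 at 211 to 289 CPM against 422 to 529 CPM in WT; in shoots the 41-OX means lie highest for the 7 cluster loci.

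Between 41-OX and WT roots, 7 of the 9 loci fell, and CYP705A5 and CYP71A16 did not pass the test. The fold changes of the 9 ran between -0.997 (AT3G25830) and -0.33 (CYP71A16), and differences between the groups of loci were not tested. Fold changes are log2 values from a quasi-likelihood fit of all root libraries, with their standard error (SE).

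THAS1 had 289, 265, 241 and 211 CPM in 41-OX roots, against 422, 529, 460 and 452 CPM in WT roots. Every 41-OX library lay below every WT library, and the fold change was -0.91 (SE 0.11). CYP708A2 had 309, 268, 289 and 261 CPM in 41-OX roots, against 408, 499, 427 and 444 CPM in WT roots. These groups did not overlap either, with a fold change of -0.68 (SE 0.09).

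CYP705A5 had 377, 346, 325 and 265 CPM in 41-OX roots, against 416, 510, 468 and 445 CPM in WT roots. Although the groups were apart, its fold change of -0.51 (SE 0.19) did not pass the threshold. AT5G47980 had 56.3, 48.5, 55.8 and 42.4 CPM in 41-OX roots, against 75.9, 121, 86.1 and 90.4 CPM in WT roots, a fold change of -0.90 (SE 0.20). All 4 values of AT5G47980 in 41-OX lay below the lowest WT value.

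MRN1 had 274, 186, 207 and 165 CPM in 41-OX roots, against 272, 311, 326 and 275 CPM in WT roots. One 41-OX library, replicate 1, was above the lowest WT library, so the groups overlapped, and the fold change was -0.53 (SE 0.13). CYP71A16 had 151, 128, 128 and 120 CPM in 41-OX roots, against 144, 174, 178 and 156 CPM in WT roots. It was the locus with the smallest change of the 9, at -0.33 (SE 0.09), and did not pass. CYP705A12 had 91.6, 62.7, 71.1 and 62.5 CPM in 41-OX roots, against 94.0, 119, 112 and 103 CPM in WT roots. Its groups were apart by a small margin, with a fold change of -0.59 (SE 0.13).

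The summed cineole pair had 470, 477, 557 and 501 CPM in 41-OX roots, against 968, 998, 952 and 999 CPM in WT roots. It was the most even of the signals in WT, and 41-OX lay at about 0.507 and 0.501 of WT for the separate loci. As 1 summed row the fold change was -0.99 (SE 0.08).

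At an adjusted p under 0.05 over all genes tested, 7 of the 9 loci were called lower in 41-OX roots than in WT roots, where 4.65% of all genes were called lower and 6.56% were called in either direction. In 7 of the 9 the groups did not overlap with 41-OX lower, against 9.55% of all genes. MRN1 and CYP705A5 changed places between these counts, since MRN1 was called but overlapped and CYP705A5 was apart but not called. The median over the 9 was -0.68, beside 0.01 over all genes. In 41-OX root replicate 4, where green-tissue markers summed to 2856 plain CPM against 231 to 616 CPM in the other 41-OX roots, all 7 cluster loci had their lowest level of the 41-OX roots. With 41-OX root replicate 4 alone left out, 6 of the 9 loci were called, beside 1277 genes in all. With pxy root replicate 3 also left out, an alternative chosen after seeing the data, 9 of 9 loci were called lower. Their fold changes were then between -0.28 (CYP71A16) and -0.99 (AT3G25830), beside 3410 genes called in all. The number called fell to 4 without 41-OX root replicate 2, where AT5G47980, MRN1 and CYP705A12 were no longer called. With all 24 libraries kept as labelled, 2 of the 9 were called, beside 137 genes in all. AT5G47980 also lost its call without WT root replicate 2 (-0.75). MRN1 also lost its call without 41-OX root replicate 3 or 4, or WT root replicate 2, 3 or 4.

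**Figure D2:**
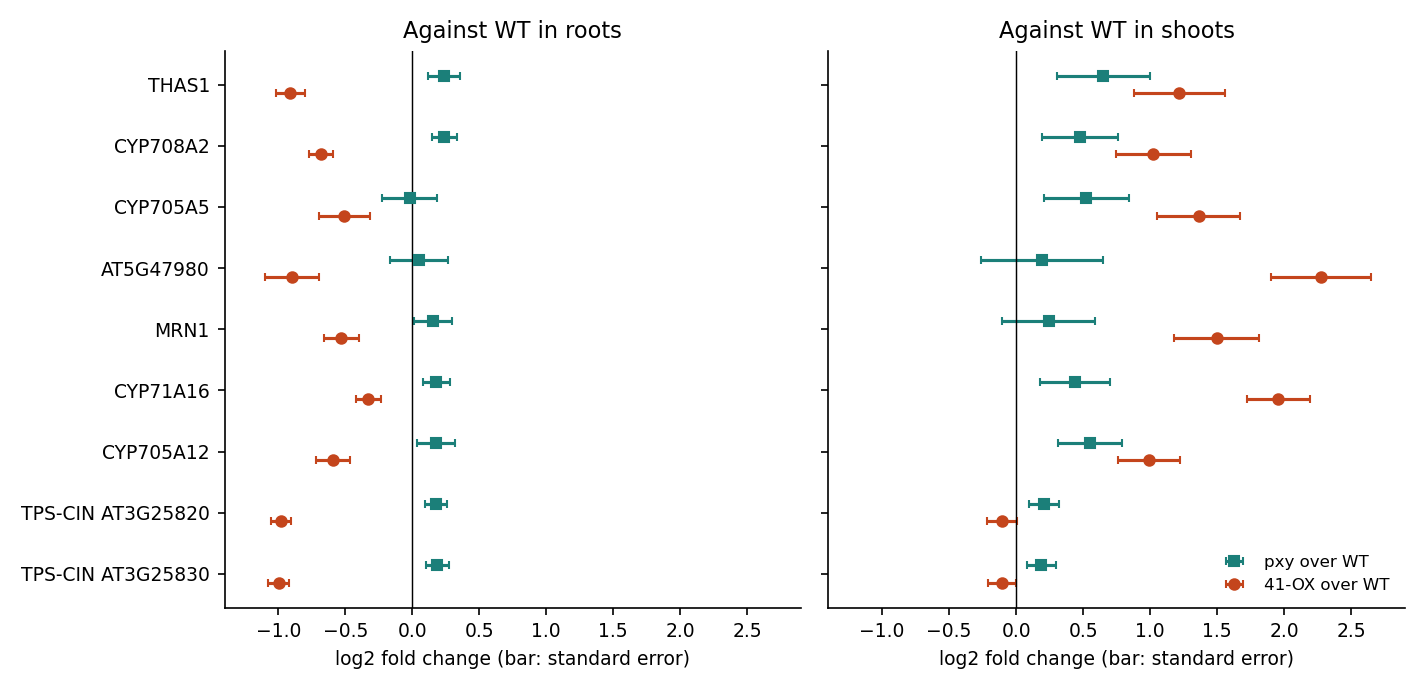
Log2 fold change over WT of each locus in roots (left) and shoots (right), for pxy (squares) and 41-OX (circles), with bars for the standard error. In roots all 9 loci lie below 0 in 41-OX, from -0.33 to -0.997, and close to 0 in pxy; in shoots the 7 cluster loci lie above 0 in 41-OX and the cineole pair does not.

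In roots labelled pxy no locus was called against WT (0 of 9, beside 0.0394% of all genes), with fold changes between -0.02 (CYP705A5) and 0.24 (CYP708A2). At an unadjusted p under 0.05 edgeR had 3 of the 9 (CYP708A2 and both cineole rows), beside 2045 of 20300 genes. The cineole rows hold the same signal and do not count separately. DESeq2 also called none of the 9. THAS1 had 578, 488 and 575 CPM in pxy roots, against 422, 529, 460 and 452 CPM in WT roots, a fold change of 0.24 (SE 0.12). The groups overlapped. The cineole pair had 1192, 1061 and 1073 CPM in pxy roots, above all 4 WT roots at 952 to 999 CPM, with a fold change of 0.18 (SE 0.09) that did not pass. Both cineole rows were the only ones of the 9 whose groups did not overlap with pxy higher, against 5.39% of all genes.

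In pxy root replicate 3, which stood apart from its group, CYP705A5 and AT5G47980 were low. CYP705A5 had 515, 270 and 571 CPM in pxy roots and AT5G47980 had 106, 60.9 and 122 CPM, with replicate 3 given second. In the same library THAS1, CYP708A2 and MRN1 were at 488, 490 and 318 CPM, close to the other pxy roots. Some genes elsewhere in the genome were low there too and others were high, with examples chosen here after their values were seen. HMG1, an HMG-CoA reductase gene of the mevalonate pathway, had 565, 270 and 615 CPM in pxy roots, and CYP716A2 had 34.3, 14.9 and 36.8 CPM. CYP702A5 went the other way, with 31.5, 50.1 and 33.1 CPM. Without that library the fold change of CYP705A5 between pxy and WT roots was 0.25, and it was not called.

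Set against roots labelled pxy, 41-OX roots were lower in 8 of the 9 loci by the call (6.67% of all genes were called lower), and CYP705A5 was the exception. THAS1 differed by -1.14 (SE 0.12), MRN1 by -0.68 (SE 0.14) and the summed cineole pair by -1.17 (SE 0.09). The comparisons of 41-OX with WT and with pxy share the 41-OX libraries. For CYP705A5 the difference was -0.49 (SE 0.21), and it was called without pxy root replicate 3, at -0.75. AT5G47980 lost its call without pxy root replicate 1 (-0.87) and without replicate 4 (-0.74).

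The genes on either side of the clusters were measured from a list of 12 neighbours, of which 11 could be tested in roots. By edgeR none was called between 41-OX and WT roots (0 of 11), with a median of -0.04. At an unadjusted p under 0.05 there were 2 of 11, beside 3889 of 20300 genes. AT5G47950, a second acyltransferase gene of the thalianol pathway that lies outside the dense part of the cluster, had 103, 89.9, 89.5 and 85.8 CPM in 41-OX roots, against 72.9, 85.5, 87.4 and 77.8 CPM in WT roots. Its fold change was 0.17 (SE 0.09, edgeR adjusted p = 0.314), with an opposite sign to that of its 4 clustered partners. AT5G48020, the gene next to THAS1, differed by -0.06 (SE 0.07), and AT5G42570, next to CYP705A12, by -0.03 (SE 0.11). AT3G25810, a terpene synthase gene just upstream of the cineole pair, had a fold change of -1.21 (SE 0.37, edgeR adjusted p = 0.0769) at a level of 0.442 to 1.94 CPM in 41-OX roots and 2.00 to 3.03 CPM in WT roots. RABA4C and AT5G47970 overlap on opposite strands, and whether counting used the strand is not given in the sources used here, so their values are uncertain.

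**Figure D3:**
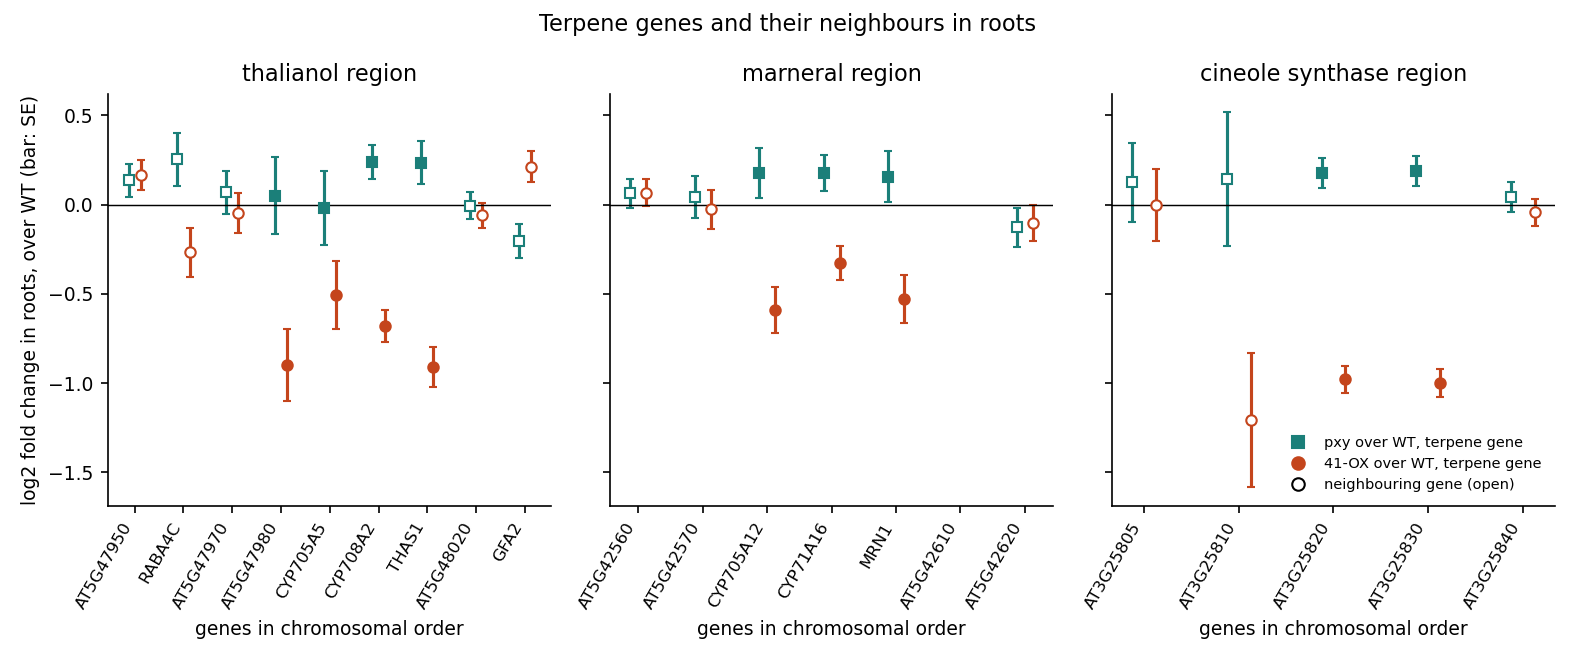
Log2 fold change over WT in roots for pxy (squares) and 41-OX (circles), with standard error bars, for the terpene loci (filled) and their neighbours (open) in chromosomal order. In 41-OX the filled points drop below 0 at the 9 loci, and tested neighbours except AT3G25810 lie between -0.27 and 0.21; AT5G42610 could not be tested.

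Other genes of the pathway were taken from fixed lists. Their counts stand beside 4.65% of all genes called lower and 1.92% called higher in 41-OX against WT roots. Of the other oxidosqualene cyclases, 2 of 8 tested were lower in 41-OX roots than in WT roots and none was higher, with a list median of -0.06. BAS, the beta-amyrin synthase, fell to 4.12, 4.31, 5.58 and 4.801 CPM in 41-OX roots, against 13.9, 10.2, 16.6 and 11.9 CPM in WT roots (-1.51, SE 0.17, edgeR adjusted p = 0.00013). PEN3, a cyclase that makes tirucalladienol, fell to 3.09, 5.31, 3.38 and 2.92 CPM in 41-OX roots, against 10.8, 15.6, 7.43 and 11.9 CPM in WT roots (-1.67, SE 0.30, adjusted p = 0.00443). In both genes no 41-OX library reached the lowest WT library. CAS1, the cycloartenol synthase that starts sterol synthesis, had 154 to 199 CPM in 41-OX roots and 148 to 162 CPM in WT roots and was not called, nor was PEN1, the arabidiol synthase, at 53.7 to 66.3 CPM in 41-OX roots and 56.9 to 67.0 CPM in WT roots.

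Of 12 tested genes that modify triterpenes, 4 were lower in 41-OX roots and none was higher, beside 4.65% and 1.92% of all genes. CYP716A1 (-1.66, SE 0.16), CYP716A2 (-1.71, SE 0.26) and AT5G36130 (-1.62, SE 0.20) lie close to PEN3 on chromosome 5. The other was CYP702A6, a P450 gene near the arabidiol and baruol cyclase genes on chromosome 4 (-2.11, SE 0.30). Their edgeR adjusted p-values ran between 4.30e-05 and 0.00121. The reductase genes SDR4 and AT1G66800, whose enzymes act on thalianol products without lying in the cluster, were not called.

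Supply of the triterpene precursor was measured through 19 genes of the mevalonate pathway and of squalene synthesis and oxidation. That list was not drawn up for the plastid precursor of cineole. By edgeR 0 of the 19 genes were called in 41-OX roots against WT roots (median 0.07, range -0.25 to 0.23). At an unadjusted p under 0.05 there were 3 of 19, beside 3889 of 20300 genes. Of 14 tested other terpene synthases, 4 were lower and none higher, beside 4.65% and 1.92% of all genes. The 4 were TPS12, a sesquiterpene synthase (-1.66, SE 0.19), AT1G66020 (-1.03, SE 0.18), AT4G20230 (-0.81, SE 0.12) and AT3G29410 (-0.74, SE 0.20). Their edgeR adjusted p-values lay between 0.000151 and 0.0431. In roots labelled pxy edgeR called no gene of any of these lists. At an unadjusted p under 0.05 there were 0 of 11 neighbours, 0 of 8 cyclases and 4 of 12 modifying genes. There were also 3 of 19 supply and 2 of 14 terpene synthase genes, beside 2045 of 20300 genes.

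Markers of root cell types were set beside the change. In 41-OX roots against WT roots, 0 of 7 root hair and epidermis genes were called by edgeR (median -0.08; 0 at an unadjusted p under 0.05), 0 of 3 root cap genes (1 unadjusted), 0 of 2 stele genes (0 unadjusted) and 1 of 6 endodermis genes, GPAT5, which was lower. Over all genes, 4.65% were called lower and 1.92% higher, and 3889 of 20300 had an unadjusted p under 0.05. The summed root hair markers ran between 451 and 813 CPM in 41-OX roots and between 642 and 844 CPM in WT roots. These sums and those that follow are in plain CPM. The summed endodermis markers ran between 491 and 667 CPM in 41-OX roots and between 522 and 569 CPM in WT roots. Green-tissue markers ran between 231 and 2856 CPM in 41-OX roots, the highest in replicate 4, and between 213 and 660 CPM in WT roots. A set of 157 root-specific genes, defined as 20 CPM or more in WT and pxy roots and at least 50 times the level of their shoots, had a median fold change of 0.08 in 41-OX roots, with 17 called higher and 7 lower. In whole roots, fewer cells of a type and less RNA per cell cannot be told apart.

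**Figure D4:**
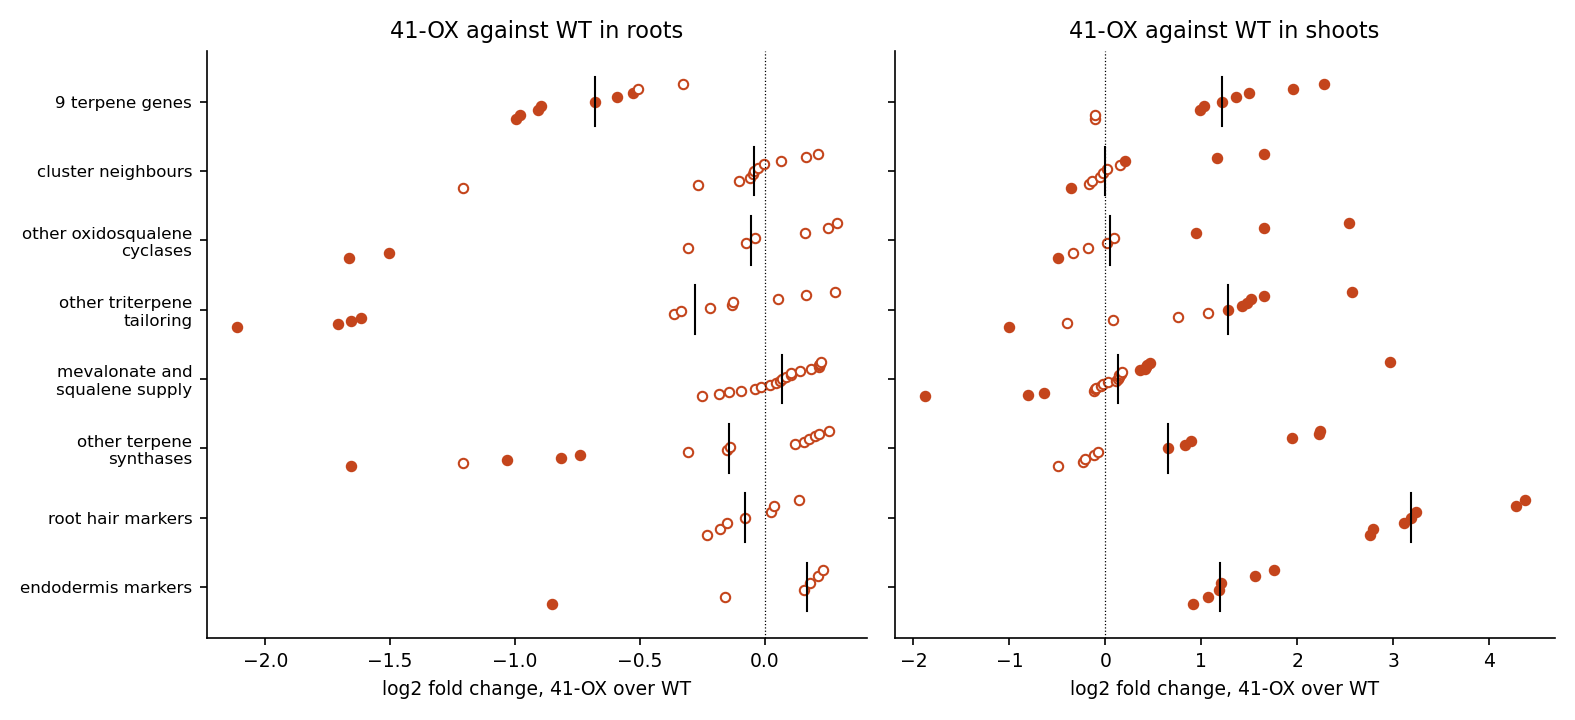
Log2 fold change of 41-OX over WT in roots (left) and shoots (right) for the 9 loci and for the lists of other pathway genes and markers, with 1 circle per tested gene, filled where called, and a line at each median. In roots the 9 loci have a median of -0.68, while mevalonate and squalene supply, listed for triterpenes and not for cineole, has 0.07. Root hair markers have -0.08 in roots and 3.19 in shoots.

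Shoots held less of the cluster transcripts than roots in every genotype, which is a description only, since the choice of the loci may rest on it. The shoot level of the 7 cluster loci was 2.70% (AT5G47980) to 15.6% (CYP708A2) of the root level in pxy. It was 12.2% (MRN1) to 42.3% (CYP708A2) in 41-OX, and 2.66% (AT5G47980) to 13.4% (CYP708A2) in WT. The cineole rows were far less root-biased, at 48.7% and 47.6% in pxy, 85.4% and 86.5% in 41-OX, and 47.7% for both in WT.

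The 7 cluster loci were higher in 41-OX shoots than in WT shoots. THAS1 had 68.2, 102, 89.3 and 83.3 CPM in 41-OX shoots, against 48.0, 22.8 and 42.1 CPM in WT shoots, a fold change of 1.22 (SE 0.34). AT5G47980 had 7.73, 14.2, 13.8 and 9.15 CPM in 41-OX shoots, against 2.21, 0.994 and 4.24 CPM in WT shoots. Its fold change of 2.28 (SE 0.37) was the largest of the 9 and rests on a low level. CYP708A2 had 107 to 135 CPM in 41-OX shoots and 42.4 to 70.0 CPM in WT shoots (1.03, SE 0.28), and CYP705A5 had 87.1 to 118 CPM in 41-OX shoots and 25.3 to 47.4 CPM in WT shoots (1.36, SE 0.31).

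In the marneral cluster, MRN1 had 22.1, 31.6, 22.9 and 24.7 CPM in 41-OX shoots, against 11.1, 4.47 and 12.6 CPM in WT shoots (1.498, SE 0.32). CYP71A16 had 21.4, 20.2, 18.0 and 14.4 CPM in 41-OX shoots, against 4.03, 3.48 and 7.31 CPM in WT shoots (1.96, SE 0.23). CYP705A12 had 8.30 to 15.4 CPM in 41-OX shoots and 4.08 to 7.55 CPM in WT shoots (0.99, SE 0.23). In all 7 the groups did not overlap, where 17.3% of all genes were apart with 41-OX higher. The cineole pair went otherwise, with 411, 439, 482 and 391 CPM in 41-OX shoots, against 536, 393 and 471 CPM in WT shoots (-0.10, SE 0.11). Its groups overlapped and it was not called.

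The call counts were 7 of 9 higher in 41-OX shoots against WT shoots, where 15.1% of all genes were called higher. THAS1 and CYP708A2 lost their calls without 41-OX shoot replicate 2 (1.12 and 0.96) and without WT shoot replicate 3 (0.94 and 0.82), and THAS1 also without 41-OX shoot replicate 3 (1.20). Against shoots labelled pxy, 4 loci were called higher (CYP705A5, AT5G47980, MRN1 and CYP71A16, beside 14.5% of all genes) and the 2 cineole rows lower (beside 14.7%). The largest of these differences was AT5G47980 at 2.08 (SE 0.34), and the summed cineole pair differed by -0.30 (SE 0.10). CYP705A5 (0.84, SE 0.28) lost its call without any 1 of the 4 41-OX shoots and without pxy shoot replicate 3 or 4. The calls of both cineole rows were lost when replicate 1 or 4 of the 41-OX shoots, or replicate 2 or 4 of the pxy shoots, was left out, and AT3G25830 also without 41-OX shoot replicate 2. In pxy against WT shoots no locus was called by edgeR (0 of 9, beside 1.7% of all genes) or by DESeq2. Fold changes ran between 0.19 and 0.65. In edgeR 1 of 9 had an unadjusted p under 0.05, beside 2693 of 20163 genes.

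Root-specific transcripts were higher in 41-OX shoots as a whole, as were the 7 cluster loci. The 157 root-specific genes stood at 5.44% to 6.78% of their mean in WT and pxy roots in the 41-OX shoot libraries, against 0.702% to 1.43% in pxy and 0.862% to 1.40% in WT shoots, where the definition itself keeps them low. All 7 tested root hair markers and all 6 tested endodermis markers were called higher in 41-OX shoots, beside 15.1% of all genes. Summed root hair levels were 85.3 to 112 plain CPM in 41-OX shoots against 7.51 to 11.9 CPM in WT shoots. Summed endodermis markers were at 83.5 to 121 CPM in 41-OX shoots and 29.0 to 44.8 CPM in WT shoots. The 3 root cap markers were too low to test and summed to 1.71 to 4.21 CPM in 41-OX shoots and 0.254 to 0.457 CPM in WT shoots. The 2 stele markers were not called, with sums of 23.5 to 35.2 CPM in 41-OX shoots and 24.3 to 31.7 CPM in WT shoots. Of 9 green-tissue markers, 5 were called lower in 41-OX shoots and none higher, beside 15.8% and 15.1% of all genes. Their sums were 12615 to 14214 CPM in 41-OX shoots and 14581 to 15333 CPM in WT shoots. Shoot-specific genes stood at 81.8% to 88.0% of the mean of WT and pxy shoots in 41-OX shoots and at 100.7% to 102.8% in WT shoots. They were picked by their high level in WT and pxy shoots and scaled to that mean, which keeps WT shoots close to it. The part of root RNA in the shoot difference was not tested.

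Expressed as a share of the 41-OX root mean, the excess of 41-OX over WT shoots was 19.1% for THAS1, 21.2% for CYP708A2, 17.9% for CYP705A5 and 17.3% for AT5G47980. It was 7.67% for MRN1 and for CYP705A12 and 10.3% for CYP71A16. Among the 157 root-specific genes the same share had a median of 5.17%, with a 10th percentile of 2.07% and a 90th of 19.2%. For the cineole rows it was negative, at -7.16% and -7.18%. The 41-OX root mean was itself below the WT root mean at the 9 loci (log2 fold changes of -0.997 to -0.33). That makes their shares larger in size than shares of the WT root mean would be. The 157 genes had a median root fold change of 0.08, so their shares and those of the loci are not on an equal footing.

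Within pxy shoots and within WT shoots, all 7 cluster loci had their lowest level in the same library. The lowest pxy shoot for all 7 cluster loci was replicate 1, which had the lowest root-specific level of all shoots at 0.702%. The lowest WT shoot for all 7 was replicate 3, which was at 0.943%, between the other WT shoots.

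**Figure D5:**
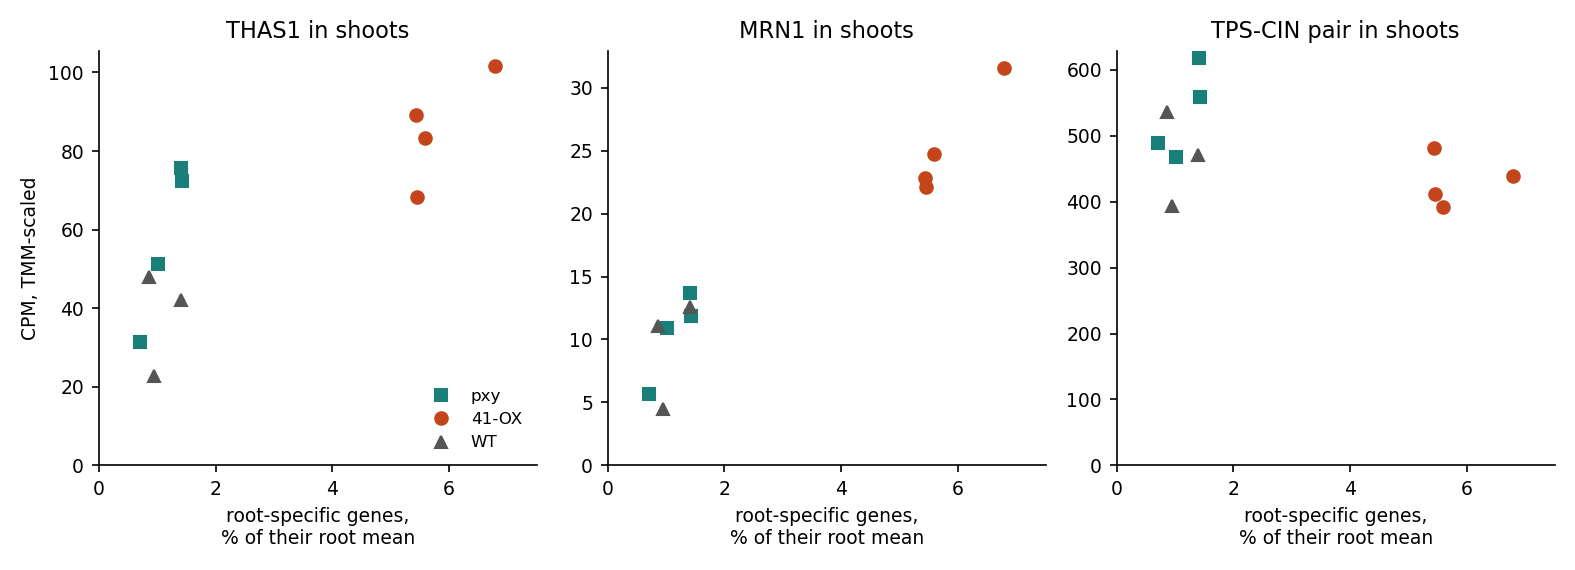
Level of THAS1, MRN1 and the summed cineole pair in each shoot library (TMM-scaled CPM) against the median level of 157 root-specific genes in that library (plain CPM), as % of their mean in WT and pxy roots, for pxy, 41-OX and WT. The 41-OX shoots lie at 5.44% to 6.78% with THAS1 at 68.2 to 102 CPM, while the cineole pair is at 391 to 482 CPM in 41-OX, within the range of the WT shoots at 393 to 536 CPM but for the lowest library.

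The effect of 41-OX differed between the organs at all 9 loci in the fit of all 22 libraries, as a root-minus-shoot difference of log2 fold changes (9 of 9 called lower, beside 9.78% of all genes). The difference was -3.15 (SE 0.48) for AT5G47980, -2.25 (SE 0.25) for CYP71A16 and -2.08 (SE 0.34) for THAS1. It was -1.98 (SE 0.35) for MRN1 and -0.85 (SE 0.14) for the summed cineole pair. For pxy neither edgeR nor DESeq2 called any (0 of 9, beside 0.00935% of all genes). In edgeR 0 of 9 had an unadjusted p under 0.05, beside 1296 of 21397 genes.

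Across all genes, 30.9% were called between 41-OX and WT shoots (15.1% higher and 15.8% lower), against 6.56% in roots, and the lists are read beside these shares. Of 10 tested neighbours of the clusters, 3 rose (AT5G47950, RABA4C and AT5G42560) and 1 fell (GFA2). Between 41-OX and WT shoots, 6 of 11 tested modifying genes rose and 1 fell, 3 of 8 other cyclases rose and 1 fell, and 6 of 11 other terpene synthases rose. AT5G47950, which was not lower in 41-OX roots, rose to 18.3, 24.3, 21.3 and 15.8 CPM in 41-OX shoots, against 7.55, 4.87 and 7.02 CPM in WT shoots (1.65, SE 0.18, edgeR adjusted p = 4.13e-07). CYP705A1, which acts on arabidiol in roots, rose by 2.57 (SE 0.39), LAS1, the lanosterol synthase, by 2.54 (SE 0.50), and PEN3 by 1.66 (SE 0.37), with edgeR adjusted p-values of 2.74e-05, 0.000475 and 0.00134. These changes rest on low levels. In WT shoots CYP705A1 had 0.0994 to 1.43 CPM, LAS1 0.146 to 0.298 CPM and PEN3 0.585 to 0.911 CPM. In 41-OX shoots the same genes had 3.79 to 5.48, 1.04 to 2.33 and 2.09 to 3.11 CPM. LUP1, a lupeol synthase, fell by 0.49 (SE 0.09, adjusted p = 0.000136) and CYP702A6 by 1.01 (SE 0.26, adjusted p = 0.00407). Of the precursor genes, 6 of 21 rose and 3 fell. SQP2, of the squalene epoxidase family, rose to 23.9 to 33.6 CPM in 41-OX shoots, against 2.92 to 4.42 CPM in WT shoots (2.96, SE 0.18, adjusted p = 2.43e-10), and SQP1, of the same family, fell by 1.88 (SE 0.25, adjusted p = 2.10e-05).

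Genes outside the 9 with the most similar pattern were ranked by Pearson's r of log2 CPM over the 11 root libraries, among 19125 genes. The libraries share their genotype groups, and the 41-OX libraries lie lowest for the loci, so each r holds that difference and is a description. For the thalianol cluster the 5 closest were AT5G37940 (r = 0.986), AT3G46170 (0.983), AT1G72140 (0.980), AT1G06640 (0.979) and AT5G38010 (0.977). All 5 were called lower in 41-OX roots than in WT roots, from -1.12 for AT5G37940 to -0.42 for AT1G06640. Ranking by r favours genes lower in 41-OX roots, so the calls here and below are no separate result. For the marneral cluster they were AT3G45710 (r = 0.978), the zinc finger gene ZF2 (0.973), AT5G53990 (0.971), GGH2 (0.970) and CXE18 (0.967), of which GGH2 was not called. For the cineole pair they were AT1G77520 (r = 0.990), SCPL51 (0.989), the homeobox gene BLH2 (0.986), PYD4 (0.985) and AT5G12420 (0.985). All 5 of these were called lower, with PYD4 at -1.94 (SE 0.14) and AT1G77520 at -1.72 (SE 0.10), both a larger decrease than that of the cineole pair.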

How the data were processed

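The authors deposited 1 table of read counts per locus for 24 libraries, with no normalization. Per the submitters' processing notes, CASAVA, TopHat2, HTSeq and the TAIR10 build were used; their versions and settings are not given in the sources used here. Libraries followed a published high-throughput Illumina RNA-seq protocol, per the labels. Rows that name no gene were left out (no-feature 1.82% to 3.41% and ambiguous 1.80% to 2.61% of counts). Pxy root replicate 2 and WT shoot replicate 2 were left out by the rule that defined the loci.

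Roots and shoots were fitted apart with edgeR 4.0.16 (R 4.3.3; TMM, low-count filter by group, robust quasi-likelihood test), and all 22 libraries together for organ differences. A gene was called where its p, adjusted by Benjamini and Hochberg's method over the whole table, was under 0.05, and SE is the log2 fold change divided by the root of its F value. DESeq2 1.42.0 and other settings were alternatives.

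The members and lists were chosen with earlier results of these data known. Beside the 9 loci, the text names at most 4 called genes per list and comparison by size of change, the clusters' neighbours, and the 5 most correlated genes per group. CAS1, PEN1, SDR4, AT1G66800 and GPAT5 in roots, HMG1, CYP716A2 and CYP702A5 in pxy roots, and CYP702A6 in shoots were named after their values were seen. Sequences and positions come from RefSeq's TAIR10.1, which matched 32835 of 33602 loci. Replicate numbers did not pair samples. Intervals cover counting error only.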

Additional observations from a re-analysis of the deposited data

Results flagged for a closer look

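The effect of 41-OX against WT differed between roots and shoots at all 9 loci. The difference itself (root minus shoot, in log2 units) was tested with edgeR's quasi-likelihood test over all 22 libraries. Of all genes, 9.78% were called lower by this test and 16% in either direction. The loci were chosen with results of these libraries known, so the 9 calls are a description. In the thalianol cluster the difference was -2.08 for THAS1, -1.66 for CYP708A2, -1.82 for CYP705A5 and -3.15 for AT5G47980. In the marneral cluster it was -1.98 for MRN1, -2.25 for CYP71A16 and -1.56 for CYP705A12. It was -0.84 for AT3G25820 and -0.86 for AT3G25830, which are 1 signal. Root-specific transcripts were higher in the same 41-OX shoots, at 5.44% to 6.78% of their root level against 0.862% to 1.40% in WT shoots, where their definition keeps them low. The part of these transcripts in the difference was not tested. Each of the 9 loci was also looked at in each group of 4 libraries, and in 0 of these 36 sets of 4 values did the highest or lowest lie far enough from the rest to stand out by Dixon's test. Groups of 3, such as pxy roots, were not tested.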

How the results depend on the processing

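With all 24 libraries as labelled, 2 of the 9 loci were called in 41-OX against WT roots (137 genes in all), 2 in 41-OX against pxy roots (230 genes) and 1 for the organ difference of 41-OX (402 genes). Pxy against WT roots then had 1 gene called, as did its organ difference, and reversed without a call for THAS1 (-0.077), CYP708A2 (-0.040), AT5G47980 (-0.31), MRN1 (-0.20), CYP71A16 (-0.19) and CYP705A12 (-0.15). Fits of only the groups compared called 4 genes in pxy against WT roots, 2382 in 41-OX against WT roots and 947 in 41-OX against pxy roots. In 41-OX against WT roots those fits called 9 of the 9 loci. There DESeq2 called 8 of the 9 (1790 genes in all) and the fit of all 22 libraries 6 (1934 genes). The fit of all 22 libraries called 14 and 3276 genes in pxy against WT and 41-OX against pxy roots, and 143 in pxy against WT shoots. DESeq2 called 96 genes in pxy against WT roots and 46 for its organ difference, where edgeR called 8 and 2. Leaving out 41-OX root replicate 4 and pxy root replicate 3, an alternative chosen after seeing the data, gave 15, 3410 and 18 genes for pxy against WT roots, 41-OX against WT roots and the organ difference of pxy. CYP705A5 was then at 0.25 in pxy against WT roots. The cause was not tested for any of these.

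Same-numbered replicates did not deviate together (correlations of -0.60 to 0.47). With a replicate block, 3 genes were called in pxy against WT roots and 1136 in 41-OX against pxy roots, and 5 of the 9 loci in 41-OX against WT roots and in 41-OX against WT shoots. The organ difference of pxy, called at none of the 9 loci in any fit, changed sign under the block for AT5G47980 (0.037), MRN1 (0.013) and AT3G25820 (0.0145). It also did so for AT3G25820 with all 24 libraries (0.063) and without both doubted libraries (0.0041), for AT5G47980 without both (0.081), and for AT3G25830 with no filter (-0.0045), all 24 libraries (-4e-04) and the summed pair (-0.0139).

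Leaving out 1 library at a time, 4 to 8 loci were called in 41-OX against WT roots (859 to 1277 genes), 7 to 9 in 41-OX against pxy roots (1247 to 2565 genes), 5 to 7 in 41-OX against WT shoots and 3 to 6 in 41-OX against pxy shoots. Genes called ran 3 to 10 for pxy against WT roots, 117 to 397 for pxy against WT shoots and 2 to 17 for its organ difference. Signs changed, without a call, in pxy against WT roots for AT5G47980 (-0.15 to 0.30) and CYP705A5 (-0.23 to 0.25). In pxy against WT shoots they did for AT5G47980 (-0.25 to 0.78) and MRN1 (-0.14 to 0.51), and in 41-OX against WT shoots for AT3G25820 (-0.23 to 0.0127) and AT3G25830 (-0.21 to 0.0031). For the organ difference of pxy the ranges were -0.74 to 0.31 (AT5G47980), -0.34 to 0.30 (MRN1), -0.15 to 0.090 (AT3G25820) and -0.11 to 0.10 (AT3G25830).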
